A study of Mus musculus with 5 samples.

Results

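The transcription factors that establish and maintain heart muscle were examined in reperfused hearts of mice that had or had not received a REV-ERB alpha antagonist. The members are Nkx2-5, Gata4, Gata6, Tbx5, Tbx20, Hand2, Mef2a, Mef2c, Mef2d and Srf, chosen by name as the cardiac lineage factors, and all 10 were found among the 22180 gene symbols that have a probe of their own on the array. Hearts of wildtype C57Bl6J mice were taken at zeitgeber time 12, in hours from lights on, and perfused outside the body on a Langendorff apparatus. Each heart had 20 min to stabilise, 20 min without flow (ischemia) and 20 min with flow restored (reperfusion). The antagonist group (n = 3) came from mice that received a REV-ERB alpha antagonist intraperitoneally, at 10 µM as labelled, 4 h and 1 h before the protocol. The sham group (n = 2) went through the same protocol and received no antagonist. Neither the compound nor a vehicle for the sham mice is named in the labels, and the age and sex of the animals are not given. Non-ischemic hearts were not analysed here, and each level belongs to reperfused tissue.

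NKX2-5, GATA4, TBX5 and HAND2 bind DNA side by side at the enhancers of heart genes, switch on the muscle program in the embryo and remain expressed in adult heart muscle. MEF2 proteins and SRF share the MADS-box DNA-binding domain. MEF2 activity is held down by class IIa histone deacetylases, while SRF works with myocardin on muscle genes, with the MRTF proteins on cytoskeletal genes and with ternary complex factors such as ELK4 on immediate-early genes. REV-ERB alpha, the product of Nr1d1, is a repressor within the circadian clock.

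Each array gave a log2 expression value per probe, made by the authors with RMA, a method that corrects background, equalises the distributions of the arrays and combines the probes of a set. The median of all values lay between 3.92 and 3.95 on the 5 arrays, and the small number of arrays limits the precision of each comparison. The 10 heart muscle genes listed as ventricular markers were at a like level in every heart, with a mean of 11.6 to 11.7. Tnnt2 and Actc1 were the brightest, and whether the list tells ventricular from atrial muscle was not tested. Sham replicate 1 stood apart: for 33.6% of the 15294 genes tested its value was the most distant from the mean of the rest, compared with 12.3% to 18.6% for each other array. Antagonist replicate 2 carried high atrial, fat cell and mesothelial markers. The mean of 10 atrial markers was 9.64 there, 7.76 and 8.07 in the other antagonist hearts and 7.69 and 7.92 in sham, and 9 of the 10 had their highest value on that array. For 8 fat cell markers, of which Fabp4 and Cidea were the brightest, the mean was 6.91, compared with 5.46 to 5.70 on the other arrays, although Fabp4 itself measured 10.78 to 10.90 on all 5. For 9 mesothelial markers (brightest Wt1 and Upk3b) the mean was 5.02 there and 4.40 to 4.46 elsewhere, with 6 of 9 highest in that heart. Sham replicate 2 had the highest value for 6 of 10 fibroblast markers and for 6 of 10 smooth muscle and pericyte markers. The brightest fibroblast markers, Dcn and Dpt, were not among them and were highest in antagonist replicate 2. Of the brightest smooth muscle and pericyte markers, Rgs5 was highest in sham replicate 1 and Abcc9 in sham replicate 2. Means of endothelial markers (brightest Cdh5 and Pecam1) lay between 7.54 and 7.71, of macrophage markers (Lyz2 and C1qb) between 6.92 and 7.16 and of conduction and neural markers (Tbx3 and Cntn2) between 4.57 and 4.74.

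Antagonist and sham hearts were set against each other to ask whether the antagonist, given before the insult, goes with other levels of the lineage factors. No member passed the test. The Mef2c, Mef2a and Mef2d values had lower means in the antagonist hearts, as had Gata4, Gata6 and Tbx20, while Tbx5, Hand2, Srf and Nkx2-5 had higher means. The largest difference was that of Mef2c, at -0.39 on the log2 scale, or 0.76-fold, and it was -0.07 without sham replicate 1. The other 9 differences lay between -0.15 and 0.19.

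With limma, 0 of 10 members reached an adjusted p under 0.05, against a background of 0% (0 of 15294 genes, smallest adjusted p 0.60). At an unadjusted limma p under 0.05 there were 0 of 10 members, against 4.6% of all genes tested (2.23% higher and 2.37% lower). The antagonist and sham values overlapped for 10 of 10 members, and they did not overlap for 12.5% of all genes. Among only 10 members a count of 0 is near these shares. All 10 members lay above the level filter of 3.42, with means over the 5 arrays between 6.45 and 10.1. Their median difference was -0.08, beside 0 for all genes, with 6 of 10 below 0 (46.3% of all genes tested) and 4 above 0 (47.7%). The rest of the genes had the same value on every array. An exact permutation test (two-sided) was run on every member; with 2 hearts against 3 there are 10 divisions and the smallest p that can be reached is 0.10. The members' exact p lay between 0.2 for Mef2c and 0.9 for Nkx2-5.

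**Figure D1:**
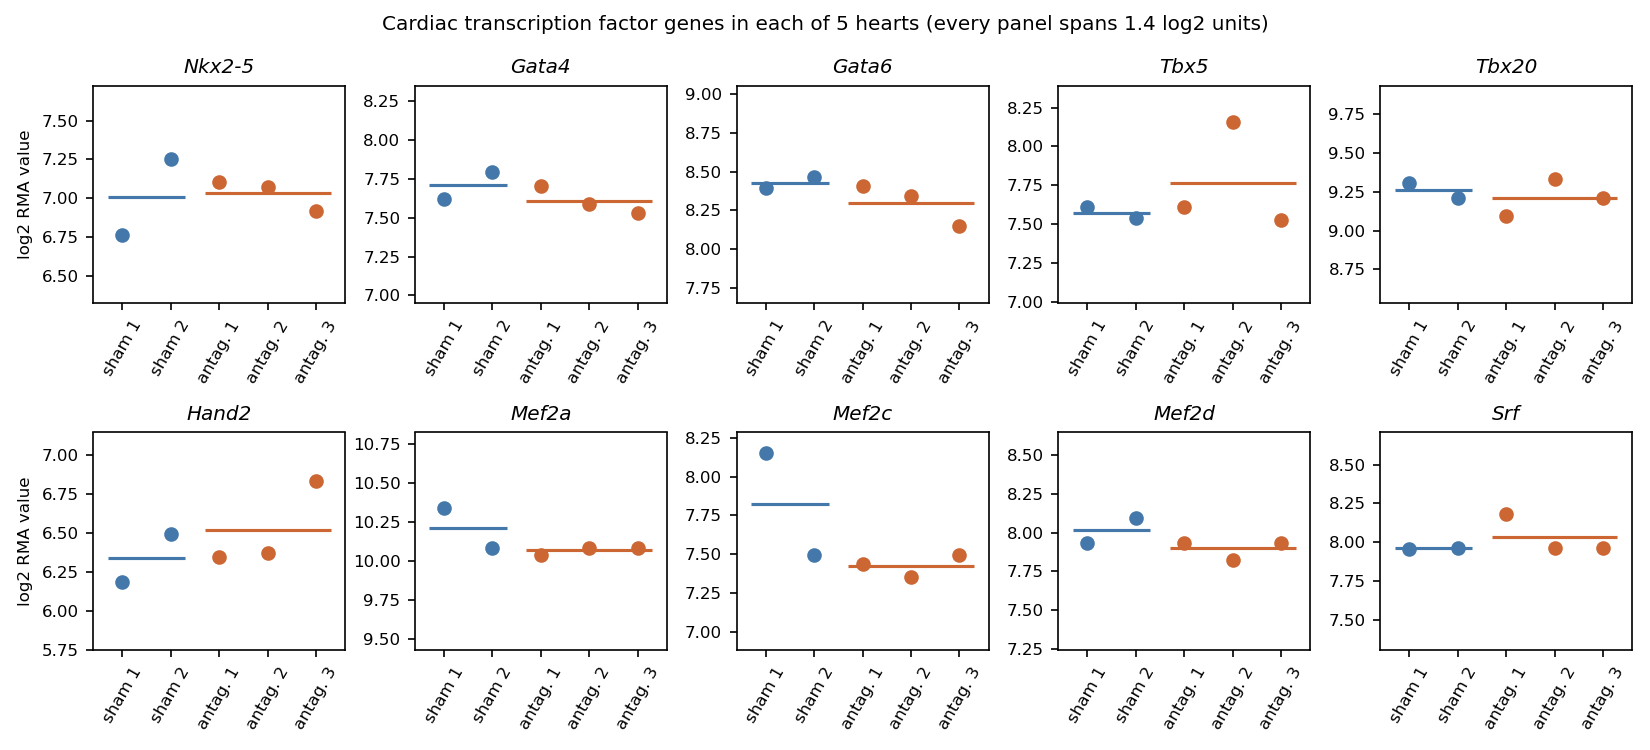
Log2 RMA value (y axis) of each of the 10 lineage factor genes in the 2 sham hearts (blue points) and the 3 antagonist hearts (orange points). Lines are group means and every panel has the same span. The Mef2c value of sham replicate 1 (8.15) and the Tbx5 value of antagonist replicate 2 (8.16) stand clear of the other 4 hearts.

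The 3 MEF2 genes each had a lower mean with the antagonist, with differences from -0.39 to -0.12 on the log2 scale, but in none were both sham hearts above all antagonist hearts. Mef2c measured 8.15 and 7.49 in sham replicates 1 and 2 and 7.43, 7.35 and 7.49 in antagonist replicates 1 to 3. Sham replicate 1 was 0.71 above the mean of the other hearts, and sham replicate 2 had exactly the value of antagonist replicate 3. The means were 7.82 ± 0.46 (SD, n = 2) in sham and 7.43 ± 0.07 (SD, n = 3) with the antagonist. The difference of -0.39 ± 0.23 (SE) had a 95% interval from -1.04 to 0.25 and a limma adjusted p of 0.64.

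Without sham replicate 1 the Mef2c difference was -0.07. Without sham replicate 2 it was -0.72 with a limma adjusted p of 0.042, and Mef2a also passed at -0.28 with an adjusted p of 0.046. In that fit 2058 of 15294 genes passed, and the 1 remaining sham heart was the array that stood apart. A second, dimmer Mef2c probe lay between 4.90 and 5.03 on the 5 arrays and differed by -0.02 ± 0.05 (SE). The height of sham replicate 1 was therefore seen with the main probe and not with the other.

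Promoter sequences were searched for the elements through which the clock acts, because the antagonist is directed at REV-ERB alpha. RefSeq promoters of build GRCm38.p6 ran from 250 bases before to 50 bases after a transcription start. They were used for 7 of the 10 members, with 3 starts for Mef2c and 9 promoters in all. Gata4, Gata6 and Tbx5 had no entry used here. The members' promoters were taken without those of a single chromosome, which the share over all promoters kept. A missing entry thus need not mean that no sequence exists. The sequence AGGTCA, the half-site bound by REV-ERB and ROR receptors, was searched on both strands. It was present in 2 of the 9 promoters, both of Mef2c, compared with 16.3% of all 32851 promoters. The E-box CACGTG was in 0 of 9 (7.15% of all) and the D-box, as TTATGTAA or TTACGTAA, in 0 of 9 (1.06% of all). The Mef2c stretches are shown because that gene had the largest difference among the members. The capitals mark TGACCT, which is AGGTCA read on the opposite strand. Bases flanking the half-site were not part of the search, and the arrays do not bear on its occupancy.
Mef2c, chr13:83523406-83523454, plus strand: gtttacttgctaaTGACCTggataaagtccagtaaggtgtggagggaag
Mef2c, chr13:83573461-83573570, plus strand: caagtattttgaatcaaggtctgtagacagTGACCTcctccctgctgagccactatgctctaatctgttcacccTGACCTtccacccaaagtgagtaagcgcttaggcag

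Mef2a, the MEF2 gene most prominent in adult heart muscle, measured 10.34 and 10.09 in the sham hearts and 10.04, 10.09 and 10.09 in the antagonist hearts. Sham replicate 1 was again the highest, and sham replicate 2, antagonist replicate 2 and antagonist replicate 3 had the same value. The difference was -0.15 ± 0.09 (SE, limma adjusted p 0.64), and without sham replicate 1 it was -0.02. Mef2d, which mediates stress signals in the adult heart, measured 7.93 and 8.09 in sham and 7.93, 7.82 and 7.93 with the antagonist. Here sham replicate 2 was the high one, and sham replicate 1 had exactly the value of antagonist replicates 1 and 3. The difference was -0.12 ± 0.07 (SE, limma adjusted p 0.64), with an interval from -0.31 to 0.08. Without sham replicate 2 it was -0.04.

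Mef2c had the widest spread over the 5 hearts of all members, 0.80 on the log2 scale. The genes whose values followed it most closely, by the root mean square distance between profiles centred on their own means over the 5 arrays, were Bcl2, the survival factor gene (0.011), the growth factor gene Fgf18 (0.025) and 1300002E11Rik (0.034). Bcl2 measured 7.71 in sham replicate 1 and 6.90 to 7.03 in the other hearts. All of these profiles share the high value of sham replicate 1, the array that stood apart for many genes, and the part of that array in the likeness was not tested.

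Srf was nearly level. It measured 7.96 in both sham hearts and in antagonist replicates 2 and 3, and 8.18 in antagonist replicate 1. A single heart thus gave the whole difference of 0.08 ± 0.08 (SE, limma adjusted p 0.74), which was 0.0038 without antagonist replicate 1. The 95% interval ran from -0.17 to 0.32. Sham replicate 2 and antagonist replicates 2 and 3 had exactly the same value, so their likeness need not measure agreement between hearts.

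The promoter of Srf holds the element that SRF itself binds, and that of Mef2a the element bound by MEF2 proteins. The CArG box, searched on both strands after the promoters had been seen, was found 2 times in the Srf promoter, at positions -82 to -73 and -62 to -53 from the start, and in 1.63% of all promoters. The MEF2 site, searched in the same way, lay across the start of Mef2a and was in 3.19% of all promoters. Both sequences show the members' binding elements in capitals, and the arrays do not bear on their occupancy.
Srf, chr17:46556205-46556254, minus strand: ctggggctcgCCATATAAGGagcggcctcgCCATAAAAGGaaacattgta
Mef2a, chr7:67372841-67372870, minus strand: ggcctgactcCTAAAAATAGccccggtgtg

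Gata4 and Gata6 encode zinc finger factors with overlapping roles in heart muscle growth, and their values ran alike across the hearts. Gata4 measured 7.62 and 7.80 in sham and 7.70, 7.59 and 7.53 with the antagonist. Gata6 measured 8.39 and 8.46 in sham and 8.41, 8.34 and 8.15 with the antagonist. For both genes sham replicate 2 was the highest and antagonist replicate 3 the lowest, and the groups overlapped because antagonist replicate 1 exceeded sham replicate 1. The Gata4 difference was -0.10 ± 0.08 (SE), with an interval from -0.34 to 0.14 and a limma adjusted p of 0.65. That of Gata6 was -0.13 ± 0.09 (SE), with an interval from -0.39 to 0.14 and a limma adjusted p of 0.64. Without sham replicate 2 the difference of Gata4 was -0.02, and without antagonist replicate 3 that of Gata6 was -0.05. The mean of 10 fibroblast markers was 7.79 and 8.05 in the sham hearts and 7.74, 7.94 and 7.69 in the antagonist hearts, and that of 10 smooth muscle and pericyte markers was 7.56 and 7.68 in sham and 7.50, 7.58 and 7.49 with the antagonist. Both means shared the highest and lowest heart with the GATA genes but were second highest in antagonist replicate 2, where both GATA genes were second lowest. The part of these cells in the GATA values was not tested.

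Both T-box genes had their highest values in antagonist replicate 2. Tbx5, a factor of the atria, the left ventricle and the conduction system, measured 7.61 and 7.54 in sham and 7.61, 8.16 and 7.53 in antagonist replicates 1 to 3. Antagonist replicate 2 was 0.59 above the mean of the other hearts, which spanned only 7.53 to 7.61. The difference of 0.19 ± 0.23 (SE, limma adjusted p 0.74) had an interval from -0.47 to 0.86, and without antagonist replicate 2 it was -0.0025.

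That heart is the one with the high atrial markers. Nppa, the atrial natriuretic peptide gene, measured 12.86 in it and 11.47 to 11.93 in the others, and Pam, whose enzyme amidates peptides in atrial granules, measured 11.01 in it and 10.22 to 10.42 in the others. Relative to each gene's mean over the hearts, the median of the 10 atrial markers was 0.96 there and -0.28 to -0.18 elsewhere. The exception was Myl4, an atrial myosin light chain gene (6.89, with 6.58 to 7.01 in the other hearts), named after its values were seen. Whether the amount of atrial tissue plays a part in the Tbx5 value was not tested. In these whole-tissue RNA values more cells of a type and more RNA per cell cannot be told apart. Tbx20, a repressor and activator needed for the adult heart muscle program, measured 9.31 and 9.21 in sham and 9.09, 9.33 and 9.21 with the antagonist. Antagonist replicate 2 was the highest by a small margin over sham replicate 1. The difference was -0.05 ± 0.09 (SE, limma adjusted p 0.83), and without sham replicate 1 or antagonist replicate 1 it was above 0, at 0.0029 and 0.013.

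**Figure D2:**
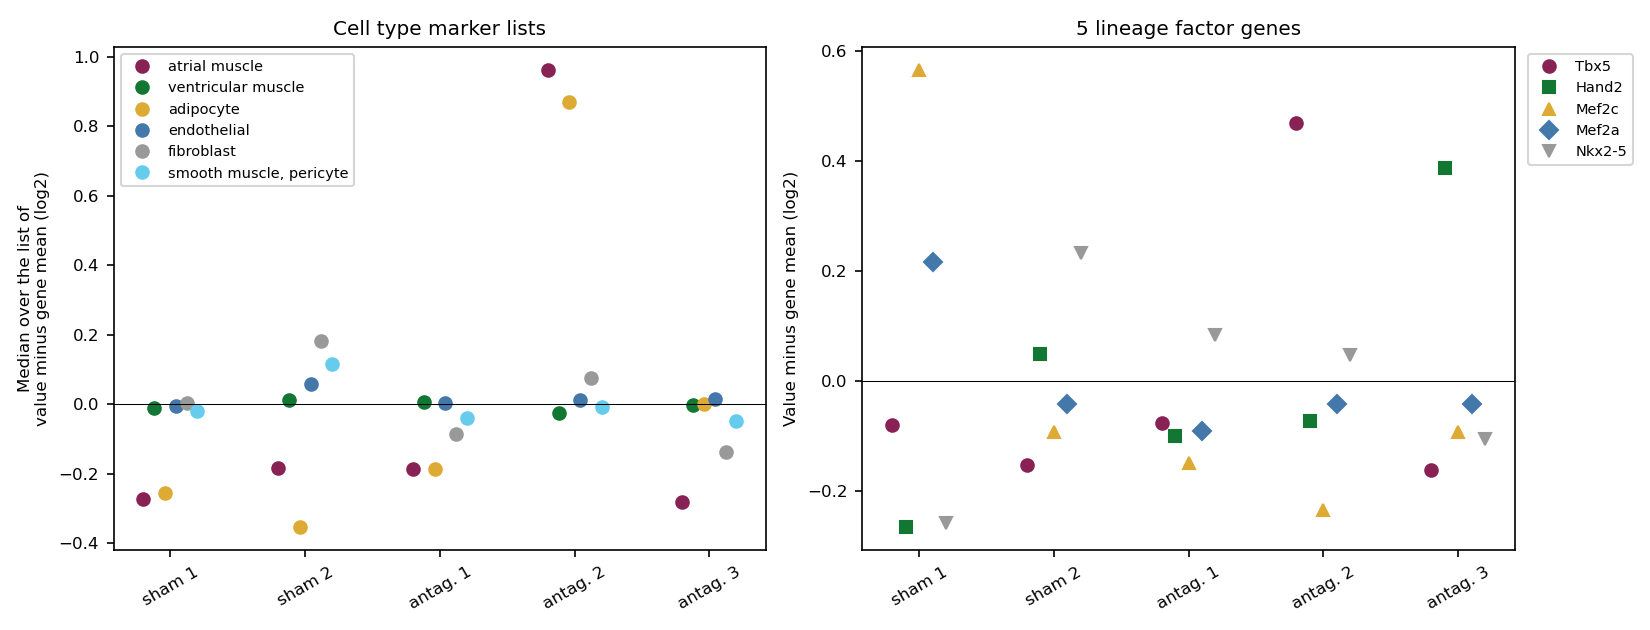
Left, the median over each of 6 cell type marker lists of the log2 value minus the gene's mean over the 5 hearts (y axis), by heart (x axis). Right, the value minus the gene's mean for 5 lineage factor genes. Atrial markers (0.96) and fat cell markers (0.87) are high in antagonist replicate 2, where Tbx5 is also at its highest, while Mef2c and Mef2a are highest in sham replicate 1.

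Nkx2-5 and Hand2 had their lowest values in sham replicate 1. Nkx2-5, the homeobox factor that marks committed heart muscle cells, measured 6.76 and 7.26 in sham and 7.11, 7.07 and 6.92 with the antagonist. The sham hearts bracketed all 3 antagonist hearts, so that the means were nearly equal, 7.01 ± 0.35 (SD, n = 2) and 7.03 ± 0.10 (SD, n = 3). The difference was 0.02 ± 0.18 (SE, limma adjusted p 1) with an interval from -0.49 to 0.53, and its sign followed the sham heart used: it was -0.22 without sham replicate 1 and 0.27 without sham replicate 2. Hand2, a basic helix-loop-helix factor of the right ventricle and of cells of neural crest origin, measured 6.18 and 6.50 in sham and 6.35, 6.38 and 6.83 with the antagonist. Antagonist replicate 3 was 0.48 above the mean of the other hearts. The difference of 0.18 ± 0.21 (SE, limma adjusted p 0.74) had an interval from -0.43 to 0.79, and it was 0.02 without sham replicate 1 and also without antagonist replicate 3.

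**Figure D3:**
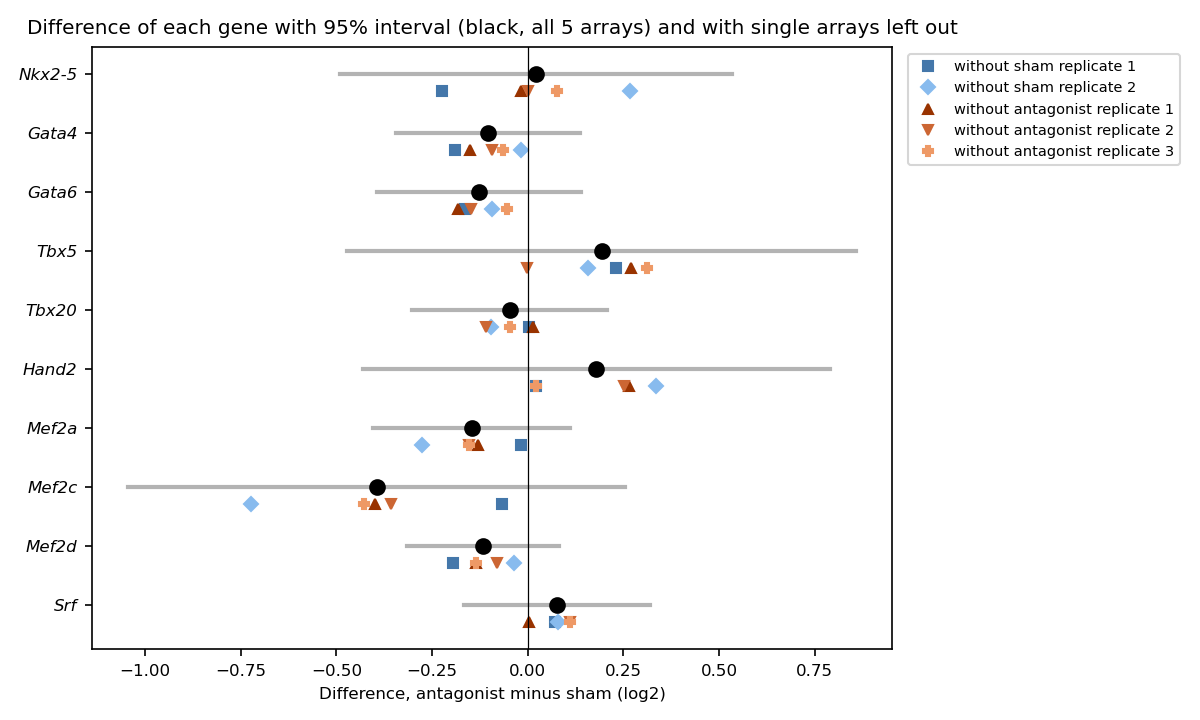
Difference of each lineage factor gene, antagonist minus sham, on the log2 scale (x axis). Black points and grey bars are the values over all 5 arrays with their 95% intervals, and coloured symbols are the differences with 1 array left out. All 10 intervals include 0, and the Mef2c values run from -0.72 without sham replicate 2 to -0.07 without sham replicate 1.

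Among other transcription factors of heart development, Irx3, Prrx1 and Prox1 were lower in every antagonist heart than in either sham heart, without passing the test. Of 23 such genes listed, 20 were tested, and 0 passed an adjusted p under 0.05 with limma. The antagonist values lay wholly below the sham values for 5 of 20, beside 6.33% of all genes tested, and wholly above them for 0, beside 6.19%. At an unadjusted p under 0.05 there were 4 of 20, all lower, beside 2.37% of all genes that were lower. The list median was -0.02, with 7 of 20 above 0, 10 below and 3 at 0. This list and the lists that follow were chosen with earlier results of these data known. Their counts are descriptions, and no list was tested as a whole.

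Irx3, an Iroquois factor of the ventricular conduction system, had the smallest p of the list. It measured 6.85 and 6.99 in sham and 6.57, 6.45 and 6.57 with the antagonist, a difference of -0.39 ± 0.07 (SE, limma adjusted p 0.64). Prrx1, a homeobox gene of mesenchymal cells, measured 7.13 and 7.02 in sham and 6.82, 6.69 and 6.83 with the antagonist (-0.29 ± 0.06, SE). The median difference of 10 fibroblast markers, which are mesenchymal too, was -0.13, and their part in the Prrx1 value was not tested. Prox1, a homeobox gene of lymphatic endothelium that is also active in heart muscle, measured 7.87 and 7.63 in sham and 7.38, 7.48 and 7.41 with the antagonist (-0.33 ± 0.09, SE), and the difference was -0.21 without sham replicate 1, its highest heart. Meis1 (-0.18 ± 0.05, SE), which restrains division of heart muscle cells, and the ventricular factor gene Irx4 (-0.23 ± 0.09, SE) were the other genes without overlap and are named after their values were seen. With sham replicate 1 or 2 left out, 7 of the 20 (35%) lay wholly below sham, beside 22.5% and 24.6% of all genes. With any antagonist array left out it was 5 of 20 (25%), beside 8.66% to 9.41%.

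Cofactors of the members were mostly on the lower side. Of 18 tested genes 14 had a lower and 4 a higher mean with the antagonist, beside 46.3% and 47.7% of all genes tested. Several of these signs hung on 1 array. Zfpm1, Hdac5 and Hopx were lower over all arrays but above 0 without sham replicate 2, at 0.11, 0.0071 and 0.061. None turned below 0 there. Mrtfa (-0.0095) and Nfatc4 (-0.070) had the same value on all arrays but 1. The list median was only -0.04, and 0 passed with limma (0 at an unadjusted p under 0.05, beside 4.6% of all genes). The antagonist values lay wholly below sham for 3 of 18, beside 6.33% of all genes. Zfpm2, the gene of the GATA4 partner FOG2, measured 7.39 and 7.06 in sham and 6.94, 6.87 and 6.997 with the antagonist, a difference of -0.29 ± 0.12 (SE, limma adjusted p 0.64). Hdac9, of the class IIa deacetylases that restrain MEF2, measured 6.38 and 6.10 in sham and 6.04, 5.86 and 5.97 with the antagonist (-0.28 ± 0.11, SE). In both, sham replicate 1 was the highest heart, and without it the differences were -0.13 and -0.14. Elk4 had 6.69 and 6.92 in sham and 6.68, 6.58 and 6.68 with the antagonist (-0.16 ± 0.08, SE), and without sham replicate 2 the difference was -0.05.

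The muscle genes listed as targets of these factors gave values on both sides of 0. Of 25 tested, 17 had a higher and 8 a lower mean, with a median of 0.02, and 0 passed with limma (2 at an unadjusted p under 0.05, beside 4.6% of all genes). Values lay wholly above sham for 4 of 25 and wholly below for 2, beside 6.19% and 6.33% of all genes. Gja1, the main ventricular connexin gene, measured 9.91 and 10.01 in sham and 9.66, 9.56 and 9.40 with the antagonist. Each antagonist heart was thus below each sham heart, by -0.42 ± 0.09 (SE, limma adjusted p 0.64). Nppb, the natriuretic peptide gene driven by GATA4, measured 10.00 and 9.94 in sham and 10.44, 10.40 and 10.18 with the antagonist (0.37 ± 0.10, SE). The calcium pump gene Atp2a2 differed by 0.12 ± 0.05 (SE), or 0.05 without sham replicate 1.

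Cytoskeletal genes listed as SRF targets divided likewise. Of 16 cytoskeletal genes 11 had a higher and 5 a lower mean, the median was 0.04, and 0 passed with limma (1 at an unadjusted p under 0.05, beside 4.6% of all genes). Values lay wholly above sham for 2 of 16 and wholly below for 2, beside the same 6.19% and 6.33%. The integrin gene Itga5 measured 7.08 and 7.11 in sham and 7.26, 7.22 and 7.19 with the antagonist (0.13 ± 0.03, SE). The vinculin gene Vcl differed by 0.11 ± 0.04 (SE), and the caldesmon gene Cald1 by -0.13 ± 0.07 (SE). Without sham replicate 1 these were 0.07 and -0.05. Immediate-early genes were listed apart from the SRF targets. Of 21 tested, 9 had a higher and 12 a lower mean, the median was -0.05, and 0 passed with limma. At an unadjusted p under 0.05 there was 1 of 21, near the 4.6% of all genes, and 3 of 21 lay wholly below sham, beside 6.33%. Klf4 measured 8.003 and 7.87 in sham and 7.54, 7.65 and 7.78 with the antagonist (-0.29 ± 0.09, SE). Egr2 (-0.18 ± 0.06, SE) and Dusp1 (-0.05 ± 0.02, SE) were also wholly below sham. The Egr2 difference was -0.08 without sham replicate 1, and that of Dusp1 was -0.03 without sham replicate 2. All 3 antagonist values of Dusp1 were exactly equal, so that its small error need not measure the spread between hearts.

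**Figure D4:**
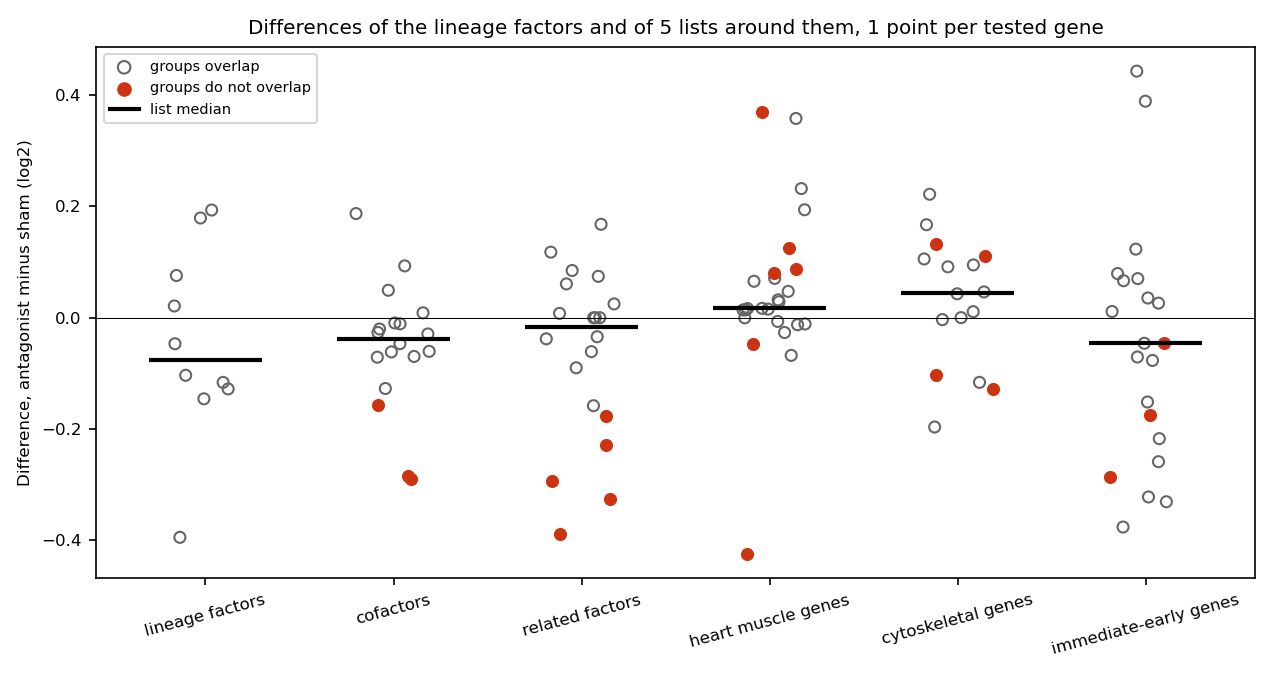
Difference, antagonist minus sham, on the log2 scale (y axis) for each tested gene of the lineage factors and of 5 lists around them (x axis). Filled red points are genes whose groups do not overlap and black lines are list medians. None of the 10 lineage factors is a filled point, and 5 of the 20 related factors are, all below 0. Of all genes tested, 12.5% have groups that do not overlap (6.33% lower), and 0 of 10 is near the first share.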

How the data were processed

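Total RNA of 5 hearts (300 ng each) was labelled with an Affymetrix whole-transcript kit, per the labels' protocols. The deposited values are log2 expression values that the authors made with RMA, per the submitters' processing notes. For the genome build, the RMA version and the probe library, each is not given in the sources used here. Of 41345 probes, 23521 had 1 gene symbol in the platform annotation, 1814 had several and 16010 were not listed. The probe with the highest mean stood for each symbol, and the 15294 genes whose mean reached the 40th percentile over probes were tested.

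Antagonist was compared with sham by limma (version 3.58.1, R 4.3.3; lmFit, then eBayes, both directions, without covariates), with Benjamini-Hochberg adjustment over all genes tested calling genes under 0.05. Each difference is the antagonist mean less the sham mean, with moderated standard errors and 95% intervals. Of the genes tested, 73.9% had equal values on some arrays, which can make errors too small. The labels call the samples biological replicates, with no word on animals per sample. Members, lists and the rule for named genes were chosen with earlier results of these data known; the rule takes all members, the 3 genes of smallest p without overlap per list, the 2 brightest markers per cell type and the 3 genes most like the most variable member. Listed genes without a probe of their own were not analysed here. Alternatives changed the level filter, the normalization, the choice of probe, the variance model or the array weights, took the replicate number as a block, or left out single arrays.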

Additional observations from a re-analysis of the deposited data

How the results depend on the processing

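The 5 arrays limit the precision. The number of genes called was 0 under each alternative that kept both sham arrays. With single arrays left out it ranged from 0 to 2058, and the members called from 0 to 2, the upper ends without sham replicate 2; without sham replicate 1 there were 1319 genes and 0 members. A lone sham array is assumed there to vary like the antagonist arrays. The replicate numbers are not stated to pair the hearts. Deviations from group means correlated at -0.11 and 0.03 for the 2 pairs, and between -0.13 and 0.13 over all combinations. The deviations of the 2 sham arrays mirror each other by construction, so these values cannot show whether the hearts were paired. With the replicate block, in which antagonist replicate 3 has no partner, 0 genes and 0 members were called and the members' median was -0.050. With arrays left out, medians ranged from -0.087 to -0.027 (members), -0.056 to -0.024 (cofactors), -0.037 to 0 (related factors), 0.014 to 0.075 (muscle genes), 0.0051 to 0.088 (cytoskeletal genes) and -0.101 to 0.042 (immediate-early genes). The related factors had -0.034 without a level filter and -0.090 at the 60th percentile, where other genes are tested, and the muscle genes 0.050 after a second quantile normalization; the cause was not tested. The level filters and variance models leave the members' differences identical by construction, so only rescaling, weights, the block, left-out arrays and, for Mef2c, the probe could move them. Mef2a (-0.28) and Mef2c (-0.72) passed without sham replicate 2. Nkx2-5 ranged from -0.22 to 0.27 and turned without sham replicate 1 (-0.22) or antagonist replicate 1 (-0.016). Tbx20 ranged from -0.11 to 0.013 and turned without the same arrays (0.0029 and 0.013). Tbx5 ranged from -0.0025 to 0.31 and turned without antagonist replicate 2. With arrays left out, members wholly below sham numbered 0 to 4 (4 without sham replicate 1, where 22.5% of all genes did so). Related factors numbered 7 without sham replicate 1 or 2, beside 22.5% and 24.6% of all genes. They numbered 5 without any antagonist array, beside 8.66% to 9.41%. This alternative was chosen after seeing the data.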
